A study of Mus musculus with 6 samples.

Results

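The Vmn2r genes encode the type 2 vomeronasal receptors, and DNA methylation over their gene bodies was compared between 3 kinds of mouse pluripotent stem cell. The members were the protein-coding autosomal genes whose GRCm38 annotation symbol (GENCODE M21) starts with Vmn2r, which gave 121 genes of 20807 protein-coding autosomal genes. They lay on chromosomes 7 (51 genes), 17 (32), 5 (11), 6 (9), 10 (8), 3 (7), 14 (2) and 4 (1). Of the 121 genes, 99 had 40 or more CpG reads over the gene body in every library and were tested, along with all other such genes (19013 in all). A CpG read is 1 read at 1 CpG, and the level of a region is the percentage of its CpG reads that were methylated. The 22 genes under 40 reads are accounted for below.

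Type 2 vomeronasal receptors are G protein-coupled receptors with a large extracellular ligand-binding domain, related to the calcium-sensing, glutamate and sweet taste receptors. They are used by basal sensory neurons of the vomeronasal organ to detect peptide and protein pheromones, they couple to the G protein subunit encoded by Gnao1, and the channel encoded by Trpc2 carries the response. Each neuron uses few receptors, and most members lie in tandem clusters of related copies and pseudogenes. The files hold no expression values, so that silence of these genes and the markers of the cell types were not examined.

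The study compared the methylomes of advanced pluripotent stem cells (ASC), embryonic stem cells (ESC) and epiblast stem cells (EpiSC), with 2 libraries each. All 6 libraries carry the labels wild type, strain 129S2/SvPasCrl and cell type embryonic stem cells. The study's methods add that the embryos behind the ASC lines had 129/sv mothers and transgenic fathers of mixed background. The reference genome, GRCm38, is of strain C57BL/6J. The part of strain differences in reads and levels was not tested. Per the study's methods, ASC were obtained from blastocyst-derived lines grown in activin A and bFGF and moved to a medium with activin A, BMP4, the Wnt agonist CHIR99021 and LIF, ESC were naive cells kept in 2i and LIF, EpiSC were primed cells, and all were female. The labels call the 2 libraries of a group biological replicates without saying whether they came from separate lines or cultures, so p-values refer to the spread between these libraries. That spread was moderated across all regions tested. The p-value of a region, above all of a 2 kb tile, thus rests only in part on the spread of its own values. The libraries held between 63803799 and 74925271 CpG reads. Over the Vmn2r bodies the mean depth was 1.45 to 2.07 reads per CpG, against 3.54 to 4.08 over all gene bodies.

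The sequences below show the kind of DNA these values came from, with every CpG in capitals, each from GRCm38 and read 5′ to 3′ on the strand of the gene. The first is the most CpG-rich 300-base window of an intronic 2 kb tile of Vmn2r22, the 1 tested tile of the family that was lower in EpiSC than in ESC. The next 2 are the windows with most reads, less than 50% of it repeat-masked, in the member lowest in ASC (Vmn2r51) and in the member highest in ASC (Vmn2r87). The last is the 250 bases before the RefSeq start of Vmn2r60, shown for the sparse CpGs around a start of the family. That start lies inside the longer GENCODE gene body, so the window is not the Vmn2r60 promoter tested further on.
Vmn2r22, intron, chr6:123647160-123647459, minus strand: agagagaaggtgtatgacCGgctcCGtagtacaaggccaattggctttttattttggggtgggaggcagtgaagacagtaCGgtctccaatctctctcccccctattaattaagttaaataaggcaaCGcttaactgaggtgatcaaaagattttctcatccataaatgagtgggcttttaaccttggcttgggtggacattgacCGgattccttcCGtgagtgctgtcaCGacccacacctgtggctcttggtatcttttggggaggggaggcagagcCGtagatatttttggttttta
Vmn2r51, coding exon and intron, chr7:10097975-10098274, minus strand: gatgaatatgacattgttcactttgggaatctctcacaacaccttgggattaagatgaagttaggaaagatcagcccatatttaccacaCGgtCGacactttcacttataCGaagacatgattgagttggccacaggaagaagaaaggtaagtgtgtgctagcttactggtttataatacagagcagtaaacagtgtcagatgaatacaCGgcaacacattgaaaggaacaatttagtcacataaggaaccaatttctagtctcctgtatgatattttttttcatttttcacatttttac
Vmn2r87, intron, chr10:130473459-130473758, minus strand: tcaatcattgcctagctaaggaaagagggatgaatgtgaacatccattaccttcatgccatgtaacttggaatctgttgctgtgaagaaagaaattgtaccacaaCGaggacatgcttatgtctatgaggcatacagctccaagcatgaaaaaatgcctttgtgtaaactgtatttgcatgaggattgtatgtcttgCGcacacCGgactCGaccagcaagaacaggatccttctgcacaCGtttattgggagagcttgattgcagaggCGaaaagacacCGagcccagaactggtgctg
Vmn2r60, before the start, chr7:42116221-42116470, plus strand: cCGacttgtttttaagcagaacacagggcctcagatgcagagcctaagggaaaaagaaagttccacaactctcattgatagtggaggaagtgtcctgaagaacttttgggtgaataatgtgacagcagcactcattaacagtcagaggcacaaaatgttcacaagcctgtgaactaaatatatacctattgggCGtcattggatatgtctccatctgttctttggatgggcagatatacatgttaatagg

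These windows held 8, 4, 7 and 2 CpGs. In the Vmn2r51 window the level was 68.8% and 36.4% in ASC, 10% and 11.1% in ESC and 84.6% and 100% in EpiSC, from 9 to 16 reads a library. In the Vmn2r87 window it was 73.8% and 87.1% in ASC, 22.6% and 15.2% in ESC and 98.0% and 100% in EpiSC, from 30 to 62 reads. Both windows kept the order ESC, ASC, EpiSC, whereas in the Vmn2r22 window ASC were highest, with 92.0% and 92.9%, against 28.6% and 42.9% in ESC and 10% and 11.1% in EpiSC (9 to 25 reads).

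CpGs were sparse in most members. Tested Vmn2r bodies had a median of 3.87 CpGs per kb, against 12.6 for all genes tested, with a median observed-to-expected CpG ratio of 0.118 against 0.238 and a GC content of 36.7% against 45.8%. Among the RefSeq promoter windows (250 bases before to 50 after the start), 115 matched 114 of the Vmn2r genes by symbol, and 34 of them (29.6%) held no CpG, against 5.43% of all 32851 windows. Their median was 1 CpG, against 7 in all, and the highest number was 23, in Vmn2r29.

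The Vmn2r bodies were lowly methylated in ESC, intermediate in ASC and highly methylated in EpiSC. The median level over the 99 members was 60.0% and 58.8% in the ASC libraries, 10.98% and 11.6% in the ESC libraries and 80.9% and 81.3% in the EpiSC libraries. Over all 19013 genes the medians were 55.3% and 55.8%, 15.6% and 15.9%, and 79.8% and 79.3%. The members were thus above the median of all genes in ASC and EpiSC and below it in ESC. Among genes under 5 CpGs per kb, as most members are, this did not hold, as given further on. Under 3.5 CpGs per kb the medians of the members lay below those of other genes in all 6 libraries. At 3.5 to 5 CpGs per kb they lay below in EpiSC and in ASC replicate 2, nearly level in ASC replicate 1 and slightly above in ESC. Replicates of a member differed by a median of 3.50 percentage points in ASC, 1.80 in ESC and 2.19 in EpiSC. The widest replicate gaps were 22.5 points for Vmn2r70 in ASC, 7.33 for Vmn2r30 in ESC and 19.2 for Vmn2r106 in EpiSC.

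**Figure D1:**
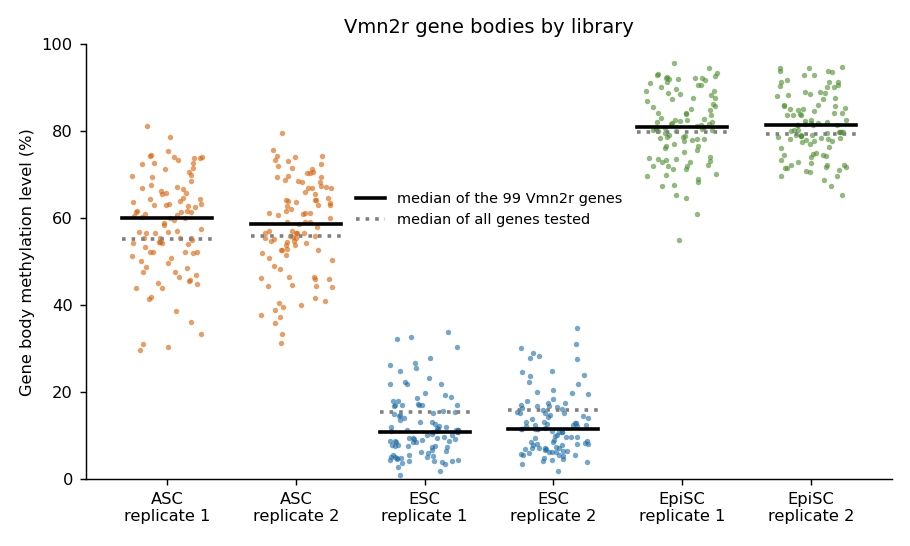
Gene body methylation level (%) of the 99 tested Vmn2r genes in each of the 6 libraries, 1 point a gene, with the median of these genes (black line) and of all genes tested (grey dotted line). The ESC libraries sit lowest, with Vmn2r medians of 10.98% and 11.6%, and the EpiSC libraries highest, with 80.9% and 81.3%.

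ASC were higher than ESC in every member tested. All 99 Vmn2r bodies were called higher in ASC (adjusted p under 0.05 and at least 20 percentage points), where 86.9% of all genes were, and 0 were called lower (0% of all genes). The median difference was 46.5 points over the members and 38.5 over all genes. Both ASC libraries lay above both ESC libraries in all 99 members and in 98.4% of all genes. The differences ranged from Vmn2r30 to Vmn2r5.

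Vmn2r5 (chr3:64488609-64509842), of the family that is co-expressed with other receptors, read 72.6% and 66.0% in ASC, 6.52% and 10.1% in ESC and 89.2% and 87.3% in EpiSC. Its difference between ASC and ESC was 61.0 points (adjusted p = 8.67e-07). Vmn2r92 (56.8 points, adjusted p = 6.08e-09), Vmn2r80 (56.3 points, adjusted p = 1.16e-09) and Vmn2r84 (55.9 points, adjusted p = 9.52e-06) came next. The smallest rises were those of 4 neighbours on chromosome 7. Vmn2r30 rose by 27.1 points (adjusted p = 0.000214), Vmn2r51 by 27.3 (adjusted p = 0.000322), Vmn2r44 by 28.1 (adjusted p = 0.000189) and Vmn2r31 by 31.3 (adjusted p = 2.59e-05).

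EpiSC were also higher than ESC in every member. All 99 were called higher, against 95.6% of all genes, and 0 lower (0% of all genes), with a median difference of 68.9 points against 62.05 in all genes. No member was left uncalled in this comparison. Vmn2r113 showed the widest gap, with 88.8% and 87.5% in EpiSC against 0.943% and 7.07% in ESC, a difference of 84.1 points (adjusted p = 9.81e-08). Vmn2r20 (82.1 points, adjusted p = 9.93e-11), Vmn2r120 (82.0 points, adjusted p = 5.46e-11) and Vmn2r23 (81.5 points, adjusted p = 4.14e-12) followed.

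The smallest differences between EpiSC and ESC were those of Vmn2r22 (43.5 points, adjusted p = 1.46e-07), Vmn2r62 (43.8 points, adjusted p = 7.42e-06), Vmn2r63 (50.5 points, adjusted p = 3.63e-10) and Vmn2r-ps159 (50.9 points, adjusted p = 5.97e-05). Vmn2r62 and Vmn2r63 were high in ESC, at 32.2% and 34.8% and at 26.8% and 27.9%. Vmn2r-ps159, which carries a pseudogene name but is annotated as protein-coding, had only 40 reads in its shallowest library.

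Between ASC and EpiSC, most members were lower in ASC. Of the 99 bodies 64 were called lower in ASC, against 53.6% of all genes, and 0 were called higher, against 0.0263% of all genes. The median difference was -21.7 points over the members and -20.7 over all genes. Of the 35 members not called, 27 had an adjusted p under 0.05 with a difference under 20 points.

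The members lowest in ASC relative to EpiSC were again on chromosome 7, with 1 on chromosome 17. Vmn2r51 (chr7:10087198-10105741) read 29.8% and 33.3% in ASC, 4.95% and 3.61% in ESC and 67.6% and 81.8% in EpiSC. Its ASC level fell short of the EpiSC level by 43.1 points (difference -43.1, adjusted p = 0.000188), and no ASC library overlapped an EpiSC library. Vmn2r30 (-41.9 points, adjusted p = 7.72e-05), Vmn2r31 (-41.3 points, adjusted p = 6.4e-05) and Vmn2r105 (-40.2 points, adjusted p = 2.69e-05) were close behind.

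At the other end, Vmn2r22 was the 1 member with a positive difference, of 1.77 points (adjusted p = 0.66), and its ASC and EpiSC libraries overlapped. Vmn2r62 (-3.16 points, adjusted p = 0.604), Vmn2r63 (-4.08 points, adjusted p = 0.102) and Vmn2r75 (-4.96 points, adjusted p = 0.292) were not called either. For Vmn2r75 the ASC replicates stood apart, at 61.0% and 72.5%, and overlapped the 73.6% and 69.8% of EpiSC.

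On a scale that puts ESC at 0 and EpiSC at 1, ASC lay at a median of 0.669 over the members. The same median over the 18178 genes with at least 20 points between ESC and EpiSC was 0.656. The members spread from 0.387 for Vmn2r51 to 0.928 for Vmn2r62 and 1.04 for Vmn2r22.

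Within the family the levels varied most in ASC. Over the 99 members the level ranged from 31.6% to 80.4% in ASC, from 3.52% to 33.5% in ESC and from 61.2% to 95.1% in EpiSC, with interquartile ranges of 16.5, 9.09 and 10.6 points. Over all genes the interquartile ranges were 23.0, 8.54 and 22.7 points. Members that were high in one cell type tended to be high in the others, with Pearson's r over the 99 genes of 0.786 between ASC and ESC, 0.588 between ASC and EpiSC and 0.515 between ESC and EpiSC. These genes share libraries and neighbourhoods and are not independent. Replicates of ASC correlated at 0.865, of ESC at 0.933 and of EpiSC at 0.818.

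In ASC the lowest members were Vmn2r51 (31.6% ± 2.49, SD, n = 2), Vmn2r30 (34.95% ± 5.57) and Vmn2r44 (34.96% ± 6.59), and their libraries overlapped. The highest were Vmn2r87 (80.4% ± 1.08), Vmn2r11 (75.3% ± 4.79) and Vmn2r62 (74.1% ± 0.0226), and the last 2 did not differ beyond theirs. In ESC, Vmn2r28 (3.52% ± 2.09), Vmn2r109 (3.98% ± 0.682) and Vmn2r113 (4.01% ± 4.33) were lowest, with overlapping libraries. Vmn2r62 (33.5% ± 1.88), Vmn2r87 (32.5% ± 1.99) and Vmn2r85 (31.5% ± 1.82) were highest in ESC and again overlapped. In EpiSC, Vmn2r104 (61.2% ± 8.65), Vmn2r66 (65.0% ± 0.557) and Vmn2r28 (66.2% ± 7.34) were lowest and overlapped. Vmn2r86 (95.1% ± 0.848), Vmn2r23 (94.1% ± 0.435) and Vmn2r1 (93.3% ± 2.13) were highest in EpiSC, where the libraries of Vmn2r1 overlapped those of both others.

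The genomic clusters, taken as runs of Vmn2r genes less than 1 Mb apart, gave 17 groups, and levels followed them in part. Vmn2r1 to Vmn2r7 on chromosome 3, the family whose products are co-expressed with those of other members, had medians of 72.5% and 68.9% in ASC, 18.7% and 18.4% in ESC and 91.8% and 89.0% in EpiSC. The 8 tested genes of the chromosome 6 cluster, which holds Vmn2r26, a receptor known for binding peptides of the major histocompatibility complex, had medians of 65.1% and 66.9%, 15.9% and 16.7%, and 91.6% and 91.7%. Vmn2r26 itself read 66.6% and 71.4% in ASC, 19.9% and 19.7% in ESC and 92.1% and 94.5% in EpiSC. These clusters were above the family median in all 6 libraries.

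The cluster from Vmn2r29 to Vmn2r52 on chromosome 7 was the lowest in ASC. Only 5 of its 24 genes were tested, Vmn2r30, Vmn2r31, Vmn2r44, Vmn2r51 and Vmn2r52, with medians of 31.0% and 38.9% in ASC, 4.17% and 5.63% in ESC and 75.2% and 74.7% in EpiSC. All 5 were called lower in ASC than in EpiSC, as 53.6% of all genes were, with a median difference of -41.3 points. This cluster was also the most thinly read, at 0.427 reads per CpG, against 1.59 to 2.56 in the other clusters. The part of depth in these levels was not tested.

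A total of 12 members lay under 45% in ASC, of which 7 were on chromosome 7 and 5 on chromosome 17. The 22 genes of the chromosome 17 cluster from Vmn2r90 to Vmn2r110 spanned 38.6% to 67.6% in ASC and 61.2% to 85.8% in EpiSC, so that low and middling members sat side by side. The second chromosome 17 cluster, from Vmn2r111 to Vmn2r117, holds Vmn2r116, the receptor of the male tear peptide ESP1. All 7 of its tested genes were called lower in ASC than in EpiSC (53.6% of all genes), with a median difference of -27.2 points. Vmn2r116 read 43.9% and 51.9% in ASC, 4.396% and 7.31% in ESC and 73.1% and 71.8% in EpiSC. In contrast, 0 of the 4 genes from Vmn2r80 to Vmn2r83 on chromosome 10 were called, with a median difference of -15.4 points.

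**Figure D2:**
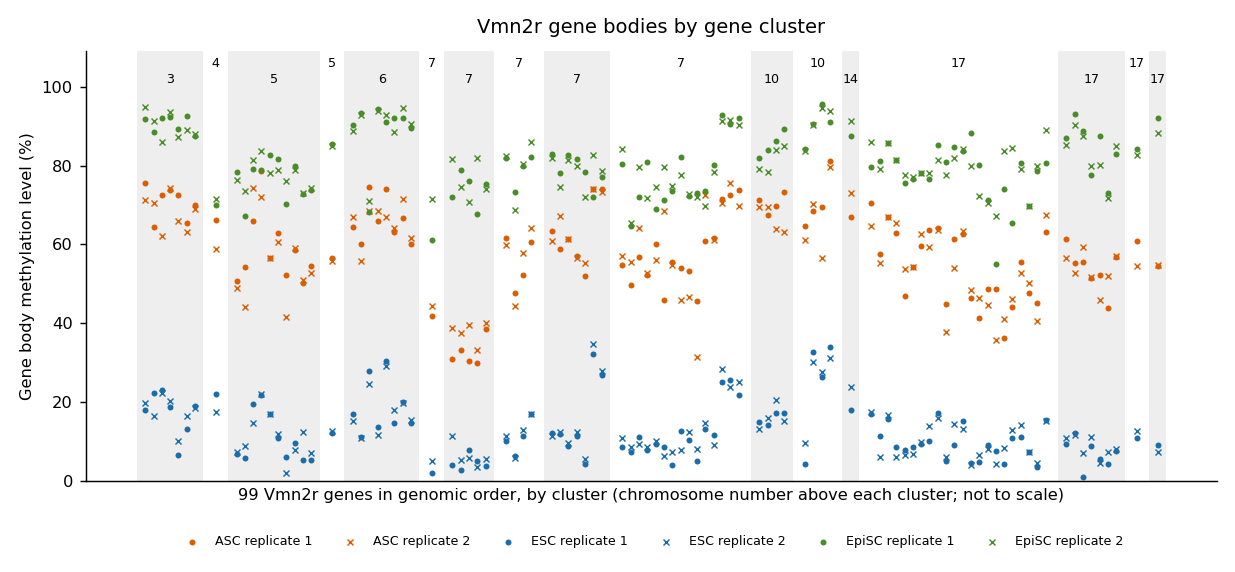
Gene body methylation level (%) of the 99 tested Vmn2r genes in genomic order, grouped by cluster with the chromosome number above each, for each of the 6 libraries (circles, replicate 1; crosses, replicate 2). The second cluster of chromosome 7 sits lowest in ASC, with medians of 31.0% and 38.9%.

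Of 3 classes of CpG density, the sparsest Vmn2r bodies had the lowest medians. The 33 members with under 3.5 CpGs per kb had medians of 52.1% and 54.2% in ASC, 7.83% and 7.94% in ESC and 76.5% and 78.2% in EpiSC. The 141 other genes of that density had 58.2% and 56.6%, 9.68% and 9.68%, and 84% and 84.4%, all above the Vmn2r medians. The 42 members with 3.5 to 5 CpGs per kb had 61.1% and 59.2%, 12.5% and 13.2%, and 83.2% and 82.9%, beside 61.1% and 62.004%, 12.3% and 12.7%, and 85.4% and 85% in 732 other genes. The 24 members with 5 or more CpGs per kb had 63.1% and 61.5%, 15.2% and 15.1%, and 82.1% and 82.2%, beside 54.8% and 55.3%, 15.8% and 16.1%, and 79.4% and 78.8% in 18014 other genes. This last class is not matched in density. The densest tested member, Vmn2r11, had 8.20 CpGs per kb, and the median over all genes tested was 12.6. Across the 99 members CpG density and level correlated at Pearson's r of 0.430 in ASC, 0.487 in ESC and 0.246 in EpiSC, and across all 19013 genes, most of them denser, r was -0.664, -0.476 and -0.593. Reads per CpG correlated with the level as well, at 0.409, 0.344 and 0.408. The part of depth in the relation to density was not tested.

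Part of the CpGs lay in repeat-masked bases. In the Vmn2r bodies 50.4% of the CpGs lay in bases that the RefSeq genome marks as repeat, against 17.0% over all gene bodies. Of the bases themselves, 45.2% were so marked in the Vmn2r bodies and 27.0% over all gene bodies. The share ranged from 8.05% to 86.5% over the tested members, the latter in Vmn2r87, and correlated with CpG density at r = 0.591. Pooled over the 121 genes, repeat CpGs stood at 63.4% and 62.9% in ASC, 16.2% and 16.6% in ESC and 83.7% and 83.3% in EpiSC. The other CpGs of the same genes stood at 59.6% and 58.8%, 12.8% and 13.0%, and 82.4% and 82.5%. Among 66 members with 40 or more reads in both parts, the median difference of repeat over other CpGs was 4.004 points in ASC, 2.45 in ESC and 0.760 in EpiSC, against 5.79, 2.42 and 7.87 over 12632 genes.

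The 22 genes under 40 reads were in 19 cases on chromosome 7. Their shallowest libraries held 0 to 38 reads, under 20 in 15 genes, and 5 tested members lay just inside the limit, with 40 to 49 reads. Pooled, the 22 genes read 40.8% and 40.3% in ASC, 9.25% and 10.1% in ESC and 76.0% and 75.7% in EpiSC, from 370 to 652 reads a library. Their order of the 3 groups was thus that of the tested members, with an ASC level near that of the low chromosome 7 genes. Of the 16674 CpGs of all 121 bodies, 20.3% had no read in any library.

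Vmn2r bodies were more often below than above the DNA around them. Each body was set against a flank, the nearest CpGs on both sides outside protein-coding genes and equal in number to those of the body, for which 95 members had 40 or more reads in both parts. The farthest flank CpG lay a median of 17099 bp from the body, and up to 205229 bp. Flanks could hold pseudogenes, and neighbouring members could share flank CpGs, so the members are not independent. In ASC 7 members were called higher than their flank (adjusted p under 0.05 and at least 10 points) and 21 lower, against 20.2% and 23.5% of all 18769 genes. In ESC 5 were higher and 8 lower (4.54% and 4.96% of all genes), and in EpiSC 4 were higher and 5 lower (22.8% and 23.1% of all genes). The median difference of the members was -4.41 points in ASC, -1.99 in ESC and -1.21 in EpiSC, against 0.125, 0.573 and 0.669 over all genes. Body exceeded flank in 28 members (29.5%) in ASC, 33 (34.7%) in ESC and 37 (38.9%) in EpiSC, against 50.4%, 53.8% and 52.7% of all genes. With no minimum size, 42 members passed the adjusted p in ASC, 21 in ESC and 16 in EpiSC. In ASC these were 11 higher and 31 lower (11.6% and 32.6% of members), against 35.9% and 35.6% of all genes. In ESC they were 6 and 15 (6.32% and 15.8%), against 23.2% and 16.4%. In EpiSC they were 6 and 10 (6.32% and 10.5%), against 36.3% and 33%. With a minimum of 100 reads, which left 71 members, the ESC calls were 4 higher and 3 lower (4.52% and 4.8% of all genes). The majority of these few calls thus turned. Of the 71 members, 44 still lay below their flank in ESC, with a median difference of -1.57 points. The ASC calls were 4 higher and 27 lower without ASC replicate 1, and 7 and 15 without ASC replicate 2. The ESC count of 13 fell to 4 without ESC replicate 1 and to 3 without ESC replicate 2, and the EpiSC count of 9 fell to 3 without EpiSC replicate 2.

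Vmn2r87 stood highest above its flank in ASC. Its body read 81.2% and 79.7% in ASC, 33.9% and 31.1% in ESC and 91.2% and 93.9% in EpiSC, and its flank 58.3% and 63.8%, 13.3% and 16.9%, and 96.6% and 94.9%. The difference was 19.4 points in ASC (SE 2.67, adjusted p = 2.33e-05), 17.4 in ESC (adjusted p = 0.000314) and -3.25 in EpiSC (adjusted p = 0.302). Vmn2r62 (16.8 points, SE 4.09, adjusted p = 0.00247) and Vmn2r8 (13.4 points, SE 3.58, adjusted p = 0.00449) followed in ASC. The call of Vmn2r62 was lost without ASC replicate 2, and that of Vmn2r8 without ASC replicate 1 and with either of the other choices of flank. The body of Vmn2r8 overlaps another protein-coding gene.

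Vmn2r104 stood lowest against its flank in ASC and was called lower in all 3 cell types. Its body read 48.7% and 35.8% in ASC, 7.61% and 4.26% in ESC and 55.1% and 67.3% in EpiSC, and its flank, within 2829 bp, 76.6% and 68.3%, 21.4% and 29.8%, and 84.6% and 83.3%. The Vmn2r104 body held 2.86 CpGs per kb, and this flank held an equal number of CpGs over a shorter stretch. The flank was thus denser in CpGs, and the part of density was not tested. The differences between body and flank were -30.2 points in ASC (SE 4.59, adjusted p = 5.78e-05), -19.7 in ESC (adjusted p = 0.00474) and -22.8 in EpiSC (adjusted p = 0.000567). Vmn2r44 (-24.2 points, adjusted p = 0.000336) and Vmn2r54 (-19.5 points, adjusted p = 6e-05) came next in ASC. In EpiSC, Vmn2r22 (-23.6 points, SE 2.47, adjusted p = 1.45e-06), Vmn2r104 and Vmn2r54 (-16.5 points, adjusted p = 0.000232) were lowest. Vmn2r105 (13.2 points, adjusted p = 0.0129), Vmn2r65 (12.3 points, adjusted p = 0.00345) and Vmn2r110 (11.6 points, adjusted p = 0.00348) were highest in EpiSC, and all 3 calls were lost without EpiSC replicate 2.

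The difference between body and flank itself differed between ASC and EpiSC in 20 members. It was higher in ASC in 8 and lower in 12, against 14.7% and 16.4% of all genes. Vmn2r22 led the first (27.8 points, SE 3.50, adjusted p = 3.73e-05), ahead of Vmn2r87 (22.6 points, adjusted p = 0.000324) and Vmn2r8 (22.5 points, adjusted p = 0.00268), and Vmn2r44 the second (-26.8 points, SE 6.41, adjusted p = 0.00395). The count of 20 fell to 11 without ASC replicate 2, and the value of Vmn2r8 turned to -2.95 when flanks could lie inside other genes.

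**Figure D3:**
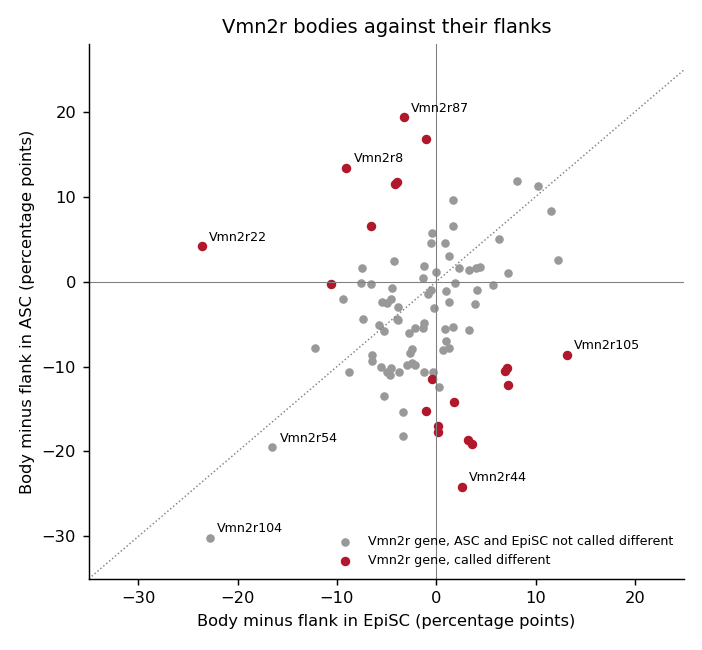
Body minus flank (percentage points, mean of 2 libraries) of 95 Vmn2r genes in EpiSC (horizontal) and ASC (vertical), with the genes whose values were called different between both cell types in red and the line of equality dotted. Vmn2r22 stands alone at -23.6 points in EpiSC and 4.197 in ASC, and Vmn2r104 is low in both.

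The intronic stretch of Vmn2r22 carried that gene's pattern. Of 69 tiles of 2 kb with 40 or more reads in every library and their centre in a Vmn2r body (42 genes), 69 were called higher in ASC than ESC (91.2% of all 441118 tiles) and 0 lower (0% of all). In EpiSC against ESC 68 were called higher (96.5% of all) and 1 lower (0.000907% of all). In ASC against EpiSC 22 were called lower (31.9%, against 53.4% of all) and 1 higher (0.101% of all). The median difference was -14.96 points, against -20.89 over all tiles. For gene bodies the share called lower was instead above that of all genes (64.6% against 53.6%). The 69 tiles, of 1841 in the family, had a median of 22 CpGs and ESC medians of 20.95% and 22.4%. Member bodies had ESC medians of 10.98% and 11.6%, so the tested tiles were not typical of the family. The 1 tile lower in EpiSC than ESC and the 1 tile higher in ASC than EpiSC were the same one, chr6:123646001-123648000 in the second intron of Vmn2r22, with 27 CpGs.

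In this tile ASC read 72.7% and 67.3%, ESC 31.1% and 28.2% and EpiSC 4% and 7.02%, from 57 to 124 reads. The neighbouring tile tested, chr6:123642001-123644000, read 77.6% and 72.9% in ASC, 36.3% and 29.3% in ESC and 89.4% and 95.2% in EpiSC. The body of Vmn2r22 without the tile read 75.4% and 68.9% in ASC, 26.8% and 23.0% in ESC and 89.4% and 92.9% in EpiSC. The EpiSC levels outside the tile were thus close to the medians of the chromosome 6 cluster, and the 68.2% and 71.1% of the whole body came with these 27 CpGs, which held 57 to 75 of the 225 to 302 reads.

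In steps of 500 bp, EpiSC were low in the whole tile and in the step after it. The EpiSC libraries read 0% and 5.26%, 11.1% and 15.4%, 6.67% and 11.1%, and 0% and 0% in the 4 steps of the tile, and 16.7% and 25% in the next, from 4 to 30 reads. The 2 steps before the tile held 0 to 2 EpiSC reads, so the low stretch has no measured edge there. In the same 5 steps the ASC libraries read between 50% and 95% and the ESC libraries between 11.1% and 42.9%. Between 77.4% and 90.6% of the bases of the 4 steps in the tile are marked as repeat in the RefSeq genome. The stretch was laid out after its values were seen, and its steps were not tested.

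**Figure D4:**
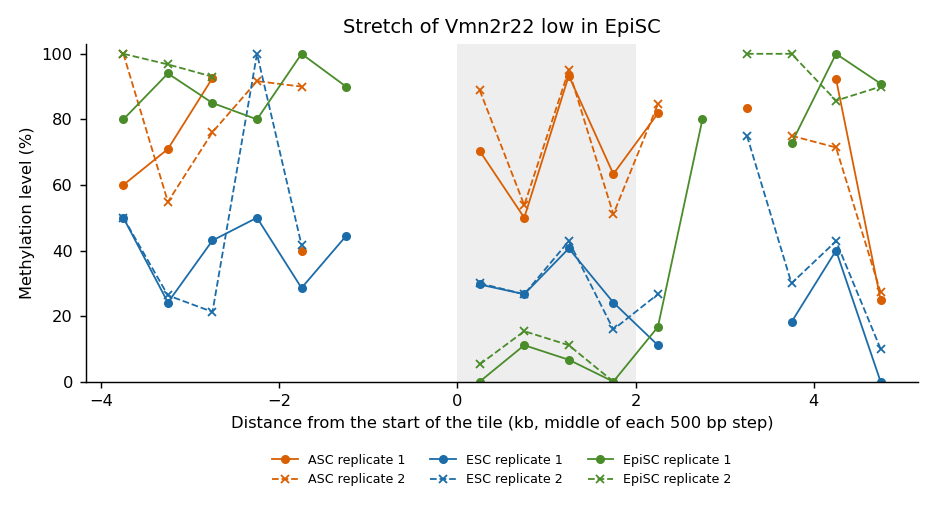
Methylation level (%) in steps of 500 bp along part of Vmn2r22, against the distance in kb from the start of the 2 kb tile (shaded), for each library, with steps of under 5 reads left out. Inside the tile both EpiSC libraries lie between 0% and 15.4%, under all ESC and ASC libraries.

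The dip in methylation at the start was shallower in Vmn2r genes than over all genes. Over the 10 kb before the start, pooled Vmn2r CpGs read 63.1% and 64.0% in ASC, 16.4% and 16.5% in ESC and 83.2% and 82.2% in EpiSC. All genes read 44.6% and 45.1%, 12.8% and 13.0%, and 65.1% and 63.8% there. Over the last 1 kb before the start, pooled Vmn2r CpGs read 54.9% and 59.9% in ASC, 12.5% and 12.4% in ESC and 81.0% and 79.4% in EpiSC, where all genes read 14.6% and 14.9%, 4.07% and 4.15%, and 24.6% and 23.5%. The first 2 of 20 equal parts of the Vmn2r bodies stood at 54.7% and 52.4% in ASC, 9.31% and 10.04% in ESC and 77.7% and 78.6% in EpiSC, and the middle of the bodies at 61.9% and 61.1%, 14.9% and 15.1%, and 83.6% and 83.2%. The first parts were thus lower than the middle in each library. These pooled values carry no test and were not matched for CpG density. Promoters, as defined below, held a median of 26 CpGs over all genes and 4 in the Vmn2r genes.

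**Figure D5:**
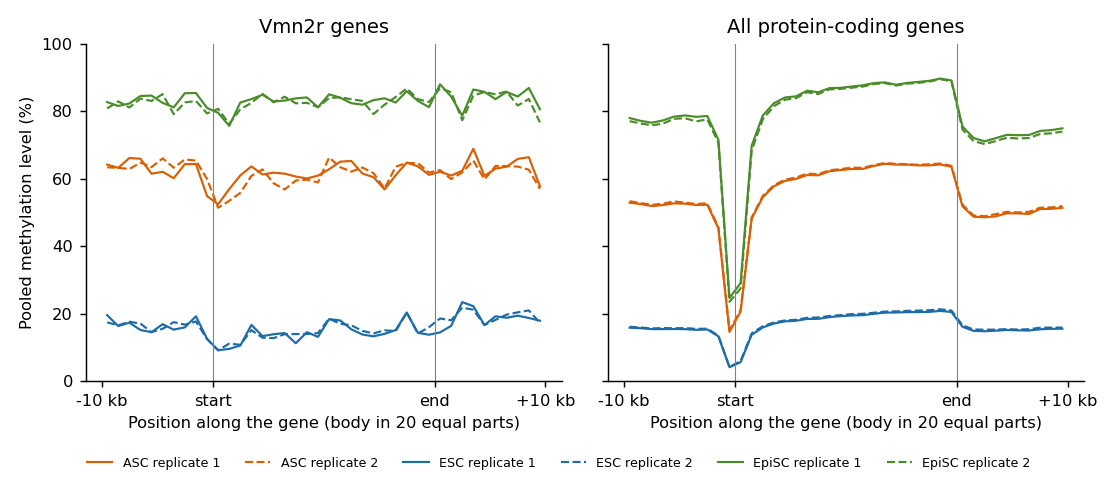
Pooled methylation level (%) along the 121 Vmn2r genes (left) and all protein-coding genes (right), from 10 kb before the start over the body in 20 equal parts to 10 kb after the end, for each library. In the last 1 kb before the start the ASC libraries read 54.9% and 59.9% at Vmn2r genes and 14.6% and 14.9% over all genes.

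Promoters were taken as the 1000 bp upstream of the annotated start plus the first 100 bp of the gene. They held a median of 4 CpGs, and 1 of the 121 reached 40 reads in every library. It was that of Vmn2r60, with 18 CpGs and 40 to 75 reads. It read 30% and 63.0% in ASC, 7.14% and 3.45% in ESC and 70.6% and 66.7% in EpiSC. It was called higher in ASC than ESC, by 41.2 points (19% of all 13864 promoters were called higher), which was 57.7 points without ASC replicate 1 and 24.7 without ASC replicate 2, and in EpiSC than ESC, by 63.3 points (38.6% of all). The difference of -22.1 points between ASC and EpiSC was not called (25% of all were called lower), with ASC replicates far apart, and was called without ASC replicate 2. Pooled over the 121 promoters, the level was 55.0% and 58.4% in ASC, 11.9% and 11.3% in ESC and 80.2% and 79.7% in EpiSC, from 635 to 878 reads.

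Exons and introns of the family differed in few of the members that could be compared. With 40 or more reads in both parts, 45 members could be compared, and in ASC their exons were called higher than their introns in 9 and lower in 1, against 11.6% and 37.9% of all 16205 genes. In ESC 2 were higher and 1 lower (2.22% and 8.5% of all), and in EpiSC 3 were higher and 1 lower (10% and 45.5% of all). Median differences of the members were 0.203 points in ASC, -0.669 in ESC and 1.05 in EpiSC, against -5.53, -1.79 and -7.36 over all genes. The median was 1.66 in ASC without ASC replicate 1 and 0.0946 in EpiSC without EpiSC replicate 2. With a minimum of 100 reads, which left 11 members, it was -1.09 in ASC and -0.716 in EpiSC. In ASC the count was 9 higher and 5 lower without ASC replicate 1 and 5 higher and 5 lower without ASC replicate 2. The median in ESC was -0.706 without ESC replicate 1 and -0.746 without ESC replicate 2. In these 2 fits the ESC calls were lost over nearly all genes, not only in the members. The EpiSC calls of the members were lost without EpiSC replicate 2.

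Among these, chosen after their values were seen, Vmn2r24 had exons at 81.6% and 78.6% in ASC, 43.1% and 41.9% in ESC and 89.8% and 93.4% in EpiSC. Its introns read 67.3% and 57.6%, 18.9% and 17.4%, and 92.4% and 92.3%. Exons exceeded introns by 17.7 points in ASC (SE 2.53, adjusted p = 0.000186) and 24.4 in ESC (adjusted p = 0.00131), while in EpiSC the difference was -0.716 (adjusted p = 0.829). Its body overlaps another protein-coding gene. By exon rank in the 115 members with a transcript of 6 exons, the last exon, which encodes the membrane-spanning domain, read 63.3% and 61.4% in ASC, 15.8% and 16.7% in ESC and 82.8% and 83.5% in EpiSC. The first exon read 54.6% and 46.2%, 10.1% and 7.65%, and 82.9% and 84.8%, from 237 to 340 reads.

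Related gene lists showed levels close to those of the Vmn2r genes. The type 1 vomeronasal receptors (98 of 208 Vmn1r genes tested) had medians of 59.2% and 59.1% in ASC, 10.7% and 10.7% in ESC and 86.5% and 86.3% in EpiSC. All 98 were called higher in ASC and in EpiSC than in ESC, and 68 lower in ASC than in EpiSC, where the shares over all genes were 86.9%, 95.6% and 53.6%. Examples are Vmn1r1, at 50.9% and 47.9% in ASC, and Vmn1r12, at 58.6% and 53.0%. The odorant receptors (563 of 1128 Olfr genes) had 62.7% and 63.5%, 11.96% and 12.3%, and 86.4% and 86.3%, with 561 called higher in ASC than in ESC, 563 higher in EpiSC than in ESC and 337 lower in ASC than in EpiSC. Olfr1 read 42.0% and 29.3% in ASC and Olfr10 62.7% and 61.0%. In EpiSC the Vmn2r medians of 80.9% and 81.3% thus lay under those of both other receptor families, a difference that was not tested. Vmn2r pseudogenes (26 of 113 with 40 or more reads) had medians of 60.8% and 59.9%, 12.9% and 13.0%, and 83.4% and 82.4%.

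Of the molecules that work with these receptors, the 8 tested H2-Mv genes, which encode class Ib major histocompatibility molecules of the same neurons, had medians of 67.7% and 64.6% in ASC, 11.4% and 15.9% in ESC and 85.8% and 85.3% in EpiSC. All 8 were called higher in ASC and EpiSC than in ESC (86.9% and 95.6% of all genes), and 3 lower in ASC than in EpiSC (53.6% of all genes), with H2-M1 at 79.3% and 64.6% in ASC. Genes of signal transduction and neuronal fate (12 of 12 tested, among them the calcium-activated chloride channels Ano1 and Ano2) were denser in CpGs, at 17.8 per kb, with 11 called higher in both ASC and EpiSC than in ESC and 6 lower in ASC than in EpiSC. B2m, the light chain of class I molecules, read 37.3% and 36.2% in ASC and 49.3% and 49.1% in EpiSC. The other receptors of the same class (13 of 13, such as Casr, the calcium-sensing receptor) were all called higher in ASC and EpiSC than in ESC, and 11 lower in ASC than in EpiSC.

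The ligand genes were mostly under 40 reads. Of the major urinary proteins 3 of 22 were tested, with Mup2 at 61.4% and 71.9% in ASC, 4.17% and 8.20% in ESC and 94.1% and 98.5% in EpiSC. Of the exocrine gland-secreted peptides 1 of 15 was tested, Esp8, at 74.4% and 75.2% in ASC, 21.2% and 29.1% in ESC and 83.3% and 89.1% in EpiSC. Of the formyl peptide receptors, some of which are also used by vomeronasal neurons, 3 of 7 were tested, with Fpr1 at 66.4% and 66.2%, 9.68% and 13.1%, and 91.8% and 92.3%. All 7 genes tested of these 3 ligand and receptor lists were called higher in ASC and EpiSC than in ESC (86.9% and 95.6% of all genes), and 3 lower in ASC than in EpiSC (53.6% of all genes).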

How the data were processed

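Genomic DNA of 6 libraries, 2 each of ASC, ESC and EpiSC, was sequenced by post-bisulfite adaptor tagging. The authors trimmed reads with Trim Galore, mapped them with Bismark 0.16.3 to GRCm38, removed duplicates and used MethPipe for each symmetric CpG. Reads in near-identical copies can be lost or misplaced. The deposited files give the methylated fraction and the count of reads per CpG, and their rounded product gave methylated reads. Reads were summed over regions of the autosomes, with a minimum of 40 in every library.

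Groups were compared with a quasi-binomial logistic model whose dispersion was moderated across regions with limma 3.58.1 (R 4.3.3), and parts of a gene with limma. P-values were adjusted by Benjamini-Hochberg over all regions. Calls needed adjusted p under 0.05 and 20 points (10 within a gene). Both were tested on simulated data. The members and gene lists were chosen with earlier results of these data known. Named genes are the 4 at each end of the differences per comparison (where all had 1 sign, the 4 smallest), the 3 highest and lowest levels per group, the 3 largest body-to-flank differences of each sign in ASC and EpiSC, genes with a tile lower in EpiSC than ESC or higher in ASC than EpiSC, and up to 3 genes a list, in alphabetical order. Vmn2r24, Vmn2r26 and Vmn2r116 were named outside this rule, after their values were seen. Other genes outside it mark a cluster, an extreme value, the tested promoter or a flagged result, as said where they stand. Alternatives were other minimums, thresholds, flanks and models, and leaving out each library.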

Additional observations from a re-analysis of the deposited data

Results flagged for a closer look

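In 20 of 95 Vmn2r genes the difference between body and flank was called different between ASC and EpiSC, the 2 cell types compared. It was higher in ASC in 8 (8.42%) and lower in 12 (12.6%), against 14.7% and 16.4% of all 18769 genes. Such calls were thus rarer in the family than over all genes. The family was also read at less depth, at 1.45 to 2.07 reads per CpG against 3.54 to 4.08. The part of depth in this share was not tested. The ASC value minus the EpiSC value was 27.8 points for Vmn2r22, 22.6 points for Vmn2r87, 22.5 points for Vmn2r8, 17.8 points for Vmn2r62, 15.7 points for Vmn2r85, 15.7 points for Vmn2r90, 13.1 points for Vmn2r75 and 10.4 points for Vmn2r17. In the other direction it was -26.8 points for Vmn2r44, -22.7 points for Vmn2r106, -21.8 points for Vmn2r70, -21.8 points for Vmn2r105, -19.3 points for Vmn2r109, -17.8 points for Vmn2r12, -17.5 points for Vmn2r74, -17.2 points for Vmn2r14, -17.2 points for Vmn2r112, -15.9 points for Vmn2r86, -14.2 points for Vmn2r73 and -11.0 points for Vmn2r71. The ASC and EpiSC values took opposite signs in all of these genes but Vmn2r73, Vmn2r71 and Vmn2r17. Examples are Vmn2r22 (4.197 points in ASC, -23.6 in EpiSC), Vmn2r105 (-8.63 and 13.2), Vmn2r44 (-24.2 and 2.61) and Vmn2r87 (19.4 and -3.25). The smaller value of a pair was often slight, such as 0.156 in EpiSC for Vmn2r12, and that of Vmn2r87 in EpiSC was not called. The direction of Vmn2r86 depended on the flank, since its value was 17.2 with equal CpG number on each side, and that of Vmn2r8 was -2.95 with adjacent CpGs also inside other genes. Vmn2r70 had the widest replicate gap of the family in ASC, of 22.5 points in body level. Vmn2r106 had the widest in EpiSC, of 19.2 points. Both gaps were near the size of the values given here for these genes. With 2 libraries a group, no outlying library could be tested for.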

How the results depend on the processing

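Gene body calls kept their direction throughout. The number of members lower in ASC than EpiSC was 64, 58 to 64 without 1 library each, and 4 with at least 40 points. Medians over the members were 59.4%, 11.3% and 81.1% in ASC, ESC and EpiSC. They were 58.2% in ASC and 80.8% in EpiSC with a minimum of 20 reads, 61.1%, 12.1% and 81.7% with a minimum of 100, and 80.5% in EpiSC as an unweighted mean over CpGs.

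For body against flank in ASC 28 members were called, 2 with at least 20 points and 18 with a minimum of 100 reads. In ESC 13 were called, 21 with no minimum size, 2 with at least 20 points, 21 with equal CpG number on each side, and 3 to 13 without 1 library each. With a minimum of 100 reads it was 7 of 71 members, with 4 higher and 3 lower. In EpiSC 9 were called, 16 with no minimum size, 2 with at least 20 points and 3 to 9 without 1 library each. Of ASC against EpiSC 20 were called, 7 with at least 20 points, 12 with a minimum of 100 reads and 11 to 19 without 1 library each. With equal CpG number on each side, Vmn2r86 turned to 16.5 points in ASC and 17.2 in ASC minus EpiSC, from -14.2 and -15.9, and Vmn2r8 turned to -2.95 in ASC minus EpiSC with adjacent CpGs also inside other genes.

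Exon-to-intron counts were 10 in ASC (0 with at least 20 points, 16 with a minimum of 20 reads, 2 with a minimum of 100), 3 in ESC (1 with at least 20 points) and 4 in EpiSC (0 with at least 20 points, 1 with a minimum of 100 reads). Without either ESC replicate the ESC calls were lost over nearly all genes, not only in the members. The EpiSC calls of the members were lost without EpiSC replicate 2. The promoter of Vmn2r60 gave 0 to 1 calls between ASC and EpiSC without 1 library each, and no promoter of the family could be tested with a minimum of 100 reads or 500 bp on each side. Tile counts followed the tiles tested. ASC against ESC gave 69 calls, 260 with a minimum of 20 reads and 5 with a minimum of 100. EpiSC against ESC gave 69, 261 and 5. ASC against EpiSC gave 23, 120 and 2, 50 with no minimum difference and 5 with at least 40 points.

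The labels number the replicates alike without saying that a number marks a shared origin. Deviations of same-numbered libraries correlated at 0.00728, -0.00821 and -0.00163 over 19013 genes, so the numbers were not taken as pairs. With a replicate block the counts of calls were 99, 99 and 64 for gene bodies, 30, 13, 9 and 20 for body against flank, 10, 2 and 4 for exons, and 69, 69 and 23 for tiles. Of 2076 alternative values of the named genes, 2007 kept their side of the threshold, 46 lost their call, 20 gained one and 3 turned.

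The shallow reading of the family limits the results. Vmn2r bodies had 1.45 to 2.07 reads per CpG in the 6 libraries, 22 genes and 120 promoters were under 40 reads, and 69 of 1841 tiles could be tested. A part of the body-to-flank differences that were not called passed the adjusted p but were under 10 points.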
